A study of Mus musculus with 43 samples.

Results

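The genes described here are the cell cycle engine and the replication machinery: cyclins, cyclin-dependent kinases (CDKs) and their inhibitors, the RB and E2F proteins, the factors that license and fire replication origins, and the kinases and checkpoint proteins of mitosis. They were chosen by symbol with a fixed name pattern, which took 78 of the 22462 genes in the deposited table. Cdkn1c was left out. The pattern also took 5 genes whose symbols only begin like those of a cell cycle gene (Mcm3ap, Ccnb1ip1, Cdkn2aip, Cdkn2aipnl and Aurkaip1), and 4 CDKs whose main known roles lie elsewhere or extend beyond the cycle (Cdk5, Cdk7, Cdk8 and Cdk9); all are counted and named. The RNA-seq compared MTF2 KO cells with Control cells, 3 libraries each, both from the E14 mouse embryonic stem cell line grown in serum with LIF on gelatin. MTF2 is a Polycomb-like subunit of the histone methyltransferase complex PRC2. The labels do not say how many clones the knockout cells came from. The ChIP-seq samples, which also covered knockout cells given back wild-type or K339A MTF2, were not used here. Each gene has 1 pooled FPKM value per group (fragments scaled to transcript length and library size), so every FPKM below is the authors' pooled value, no spread between libraries can be given, and the depth of the libraries is unknown.

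In the textbook scheme, D-type cyclins with CDK4 or CDK6 and cyclin E with CDK2 phosphorylate the RB family, which frees E2F factors to switch on the genes of DNA synthesis. Origins are licensed in G1, when ORC and CDC6 load the MCM helicase, and fired in S phase, when CDC7 and CDKs recruit CDC45 and GINS; cyclin A, cyclin B and CDK1 then drive mitosis. INK4 and CIP/KIP proteins brake the CDKs, and mouse embryonic stem cells are known for a short G1 phase with little of this braking.

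The promoters of these genes carry the sequence elements through which the cycle is known to time transcription, and a few are shown to let a reader see how the phases differ in sequence. E2F sites are known from S phase genes, and the CHR element (cell cycle genes homology region), read by the DREAM and MuvB complexes, from mitotic genes. RefSeq promoter windows (GRCm38.p6) were at hand for 63 of the 78 genes. Exact matches were searched on both strands for the E2F sites TTTGGCGC, TTTCCCGC, TTTCGCGC and TTTGCCGC, which can overlap each other on opposite strands, for the CHR elements TTTGAA and TTCGAA, and for the box CCAAT. The stretches end at the last base before the annotated start and are written 5′ to 3′ on the strand of the gene, with every match in capitals.
Mcm5, chr8:75109349-75109508, plus strand: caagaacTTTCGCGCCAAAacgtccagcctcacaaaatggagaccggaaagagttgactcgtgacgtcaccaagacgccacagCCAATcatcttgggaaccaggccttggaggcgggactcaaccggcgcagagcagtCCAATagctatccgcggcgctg
Mcm6, chr1:128359706-128359865, minus strand: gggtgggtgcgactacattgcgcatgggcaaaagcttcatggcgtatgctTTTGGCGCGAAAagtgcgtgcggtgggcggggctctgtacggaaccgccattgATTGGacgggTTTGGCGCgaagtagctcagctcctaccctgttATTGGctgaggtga
Cdk1, chr10:69352913-69353072, minus strand: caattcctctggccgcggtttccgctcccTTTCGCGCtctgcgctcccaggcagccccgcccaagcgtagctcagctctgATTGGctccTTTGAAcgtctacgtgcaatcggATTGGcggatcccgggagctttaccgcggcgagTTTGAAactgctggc
Cdc20, chr4:118437344-118437503, minus strand: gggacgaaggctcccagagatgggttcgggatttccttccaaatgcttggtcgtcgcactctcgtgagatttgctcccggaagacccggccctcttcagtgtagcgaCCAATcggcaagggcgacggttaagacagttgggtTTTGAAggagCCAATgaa
Mki67, chr7:135716380-135716539, minus strand: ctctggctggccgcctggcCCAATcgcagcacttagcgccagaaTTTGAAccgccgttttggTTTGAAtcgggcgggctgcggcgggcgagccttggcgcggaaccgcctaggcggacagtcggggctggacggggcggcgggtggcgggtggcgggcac
E2f8, chr7:48881597-48881756, minus strand: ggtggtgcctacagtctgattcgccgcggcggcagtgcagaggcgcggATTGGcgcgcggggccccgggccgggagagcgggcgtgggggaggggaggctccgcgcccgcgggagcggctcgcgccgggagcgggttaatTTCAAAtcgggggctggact
Cdkn1b, chr6:134920241-134920400, plus strand: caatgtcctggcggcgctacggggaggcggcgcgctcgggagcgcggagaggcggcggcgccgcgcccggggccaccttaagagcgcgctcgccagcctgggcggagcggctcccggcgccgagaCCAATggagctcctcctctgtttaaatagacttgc

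In Mcm5 and Mcm6 an E2F site on each strand overlaps in a single run, and Mcm6 has a further E2F site nearer its start. Cdk1 has an E2F site and a pair of CHR elements, each with an inverted CCAAT box (ATTGG) upstream of it, and Mki67 has a pair of CHR elements close together. E2f8 has a CHR element just before its start, and the stretch of Cdkn1b holds only a CCAAT box. Over the whole windows, E2F sites lay in 7 of 12 origin licensing genes (Mcm3, Mcm5, Mcm6, Mcm7, Cdc6, Orc1 and Orc3), in 0 of 7 mitotic genes and in 17 of all 63 genes, which is 26.98%. The share was 2.60% over all 27025 genes with a window and 5.07% over 8737 of the genes tested by the authors. CHR elements lay in 6 of 7 mitotic genes (Cdc20, Plk1, Mki67, Aurka, Bub1 and Bub1b) and in 2 of 12 licensing genes, against 21.7% of all genes with a window. The short box CCAAT was found in 63.5% of the 63 genes and in 41.1% of all genes with a window. A match is a stretch of letters and not a measured binding site.

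**Figure D1:**
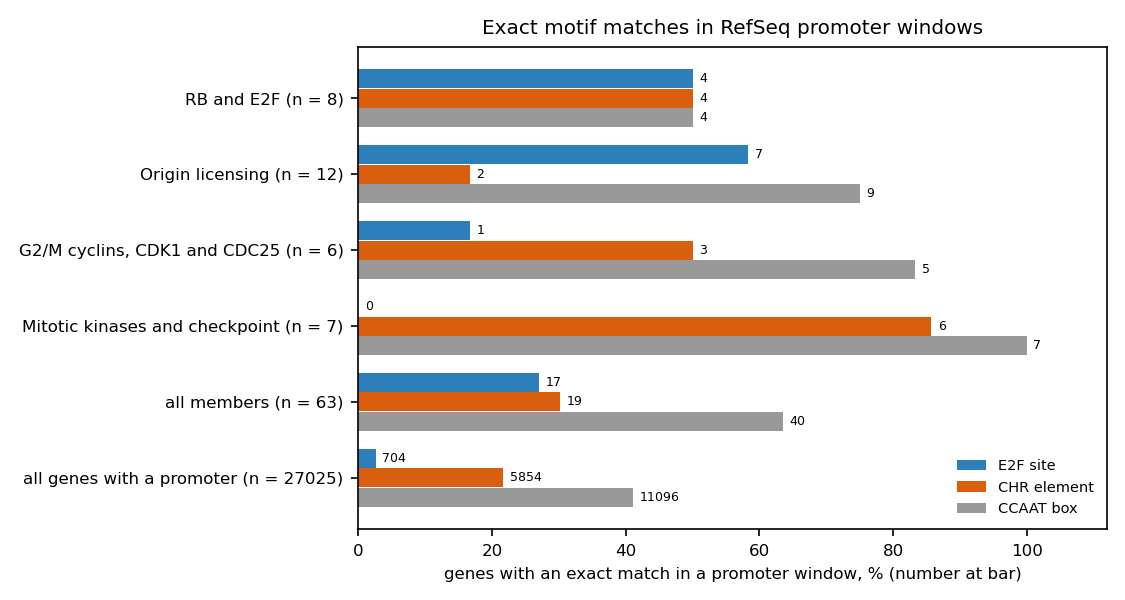
Horizontal bars give the share of genes (%) in each group with at least 1 exact match to an E2F site, a CHR element or a CCAAT box in a RefSeq promoter window, with the number of genes at the bar. E2F sites are found in 7 of 12 licensing genes and in 0 of the 7 mitotic genes, of which 6 hold a CHR element; 2.60% of all 27025 genes hold an E2F site and 21.7% a CHR element.

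A minority of the cell cycle engine was called different in MTF2 KO cells. The authors' deposited table gives a test for 75 of the 78 genes; at q of 0.05 or less (Cuffdiff), 6 were higher in knockout cells and 4 were lower. That is 13.3% of the tested genes, against 12.9% of all 11362 tested genes. In each direction the share over all tested genes was 6.90% for higher and 6.03% for lower calls. The share of calls was thus near that of the whole table. An unadjusted Cuffdiff p under 0.05 was held by 19 of the 75 genes (25.3%), against 25.7% of all tested genes. Counts in the groups below are read against these shares. The called genes were Ccnd2, Cdkn1b, E2f8, Gins4, Tyms and Mki67 (higher) and Aurkb, Aurkc, Cdk9 and Mcm3ap (lower). The median log2 ratio, taken throughout as knockout over control after adding 0.5 FPKM to both values, was 0.07 over the 75 genes and -0.0035 over all tested genes. Among the 75, 47 (62.7%) lay within 0.5 of 0 on the log2 scale, against 56.1% of all tested genes. When the test statistic in the table was instead read as a normal deviate and its p adjusted over all genes, 0 of these genes were called and 4 had an unadjusted p under 0.05 (Ccnd2, Cdkn1b, Gins4 and Cdk9), so the calls rest on the p that Cuffdiff gave. The 3 genes without a test were Rb1, Ccna1 and Ccnb3, all low or listed at 0.

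**Figure D2:**
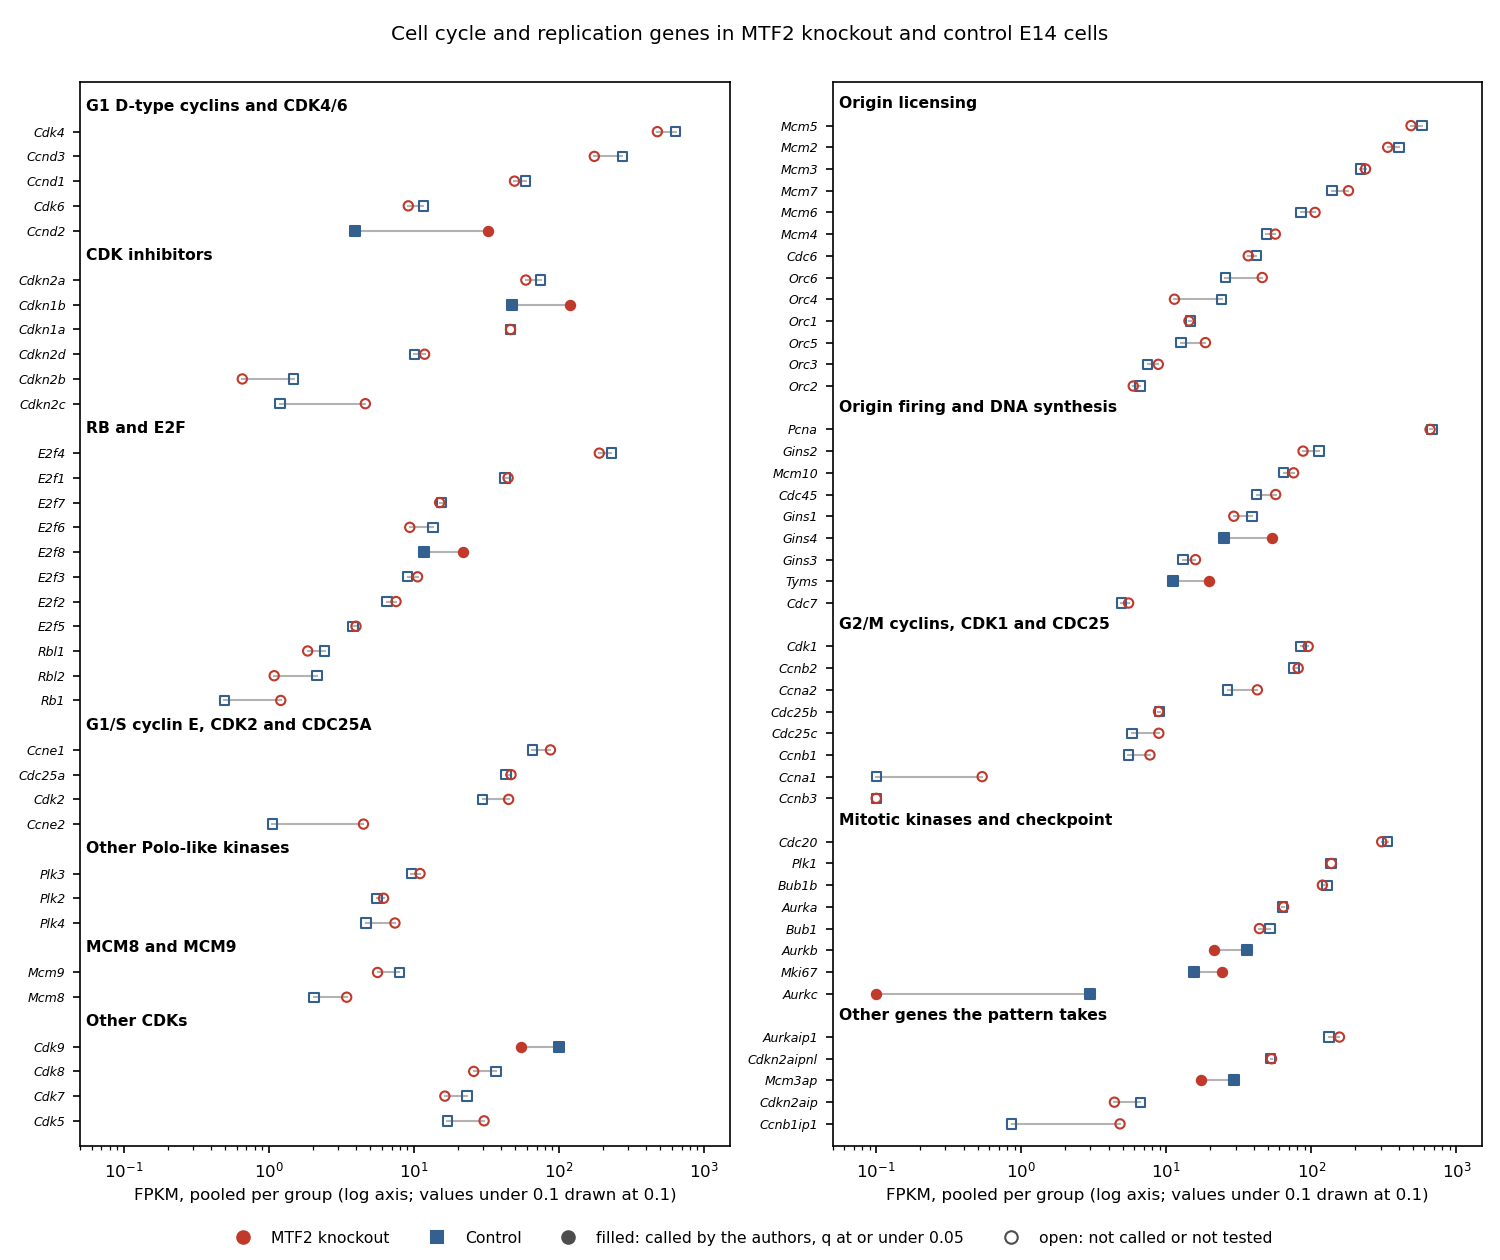
Pooled FPKM on a log axis for all 78 genes by phase group, with MTF2 KO as circles and Control as squares; filled symbols mark the authors' calls at a q of 0.05, and values under 0.1 are drawn at 0.1. Most pairs lie close together; Ccnd2 (32.5 FPKM in knockout, 3.90 in control) and Cdkn1b (119 and 47.2) show clear gaps.

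The D-type cyclins, which link growth signals to CDK4 and CDK6, differed in makeup between the groups, and Ccnd2 was the member called. Ccnd2 stood at 32.5 FPKM in knockout and 3.90 FPKM in control cells, 8.34-fold higher (log2 ratio 2.91), and was the largest called gain of the 78 genes, with q = 0.0137 in the authors' deposited table. It lies at chr6:127125162-127151060 (mm10). Ccnd3, the most abundant D-type cyclin in both groups, had 175 FPKM in knockout and 273 FPKM in control cells and was not called (q = 0.138 in the authors' deposited table). Ccnd1 had 49.3 and 58.8 FPKM in knockout and control cells and was not called either. Ccnd2 thus made up 12.7% of the summed D-type cyclin FPKM in knockout cells and 1.16% in control cells, while the sum was 257 FPKM in knockout and 335 FPKM in control cells. Their kinase partner Cdk4 had 476 FPKM in knockout and 636 FPKM in control cells, and Cdk6 had 9.13 and 11.6 FPKM. Neither was called, and Cdk4 held 98.1% of the CDK4 and CDK6 sum in knockout and 98.2% in control cells. Markers of another cell type moved with the groups: of 11 primitive endoderm markers, 9 (81.8%) were called higher and 0 lower. Over all tested genes 6.90% were called higher. Of the 9, Dab2 (30.3 FPKM in knockout, 0.526 in control) and Sox7 (11.3 and 0.367 FPKM) were above 1 FPKM in knockout cells alone. The summed level was 1457 FPKM in knockout and 213 FPKM in control cells, with none listed at 0. Much of it was Sparc, at 788 FPKM in knockout and 180 FPKM in control cells. The part of these markers in the differences of the cell cycle genes was not tested. In such bulk libraries, more cells of a type and more RNA per cell cannot be told apart.

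Of the CDK inhibitors, Cdkn1b alone was called. This gene encodes p27, which binds cyclin E with CDK2. It lies at chr6:134920401-134925513 (mm10) and had 119 FPKM in knockout and 47.2 FPKM in control cells, 2.53-fold higher, with q = 0.0012 in the authors' deposited table. That is the smallest q the table holds, and it is shared by 472 genes. Its relative Cdkn1a, which encodes p21, had 46.3 FPKM in knockout and 46.4 FPKM in control cells. Both were thus at a like level in control cells, and Cdkn1b made up 72.1% of their sum in knockout cells against 50.4% in control cells.

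The INK4 inhibitors bind CDK4 and CDK6, and Cuffdiff called 0 of the 4, with 1 at an unadjusted p under 0.05. Cdkn2a, a classic PRC2 target in differentiated cells that encodes INK4A and ARF in overlapping reading frames, had 59.0 FPKM in knockout and 74.8 FPKM in control cells. A value per gene cannot separate these products. Cdkn2c had 4.62 and 1.19 FPKM in knockout and control cells, and at these low levels its log2 ratio of 1.60 did not pass the test (q = 0.129 in the authors' deposited table). Cdkn2d had 11.8 FPKM in knockout and 10.1 FPKM in control cells, and Cdkn2b had 0.655 and 1.48 FPKM.

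**Figure D3:**
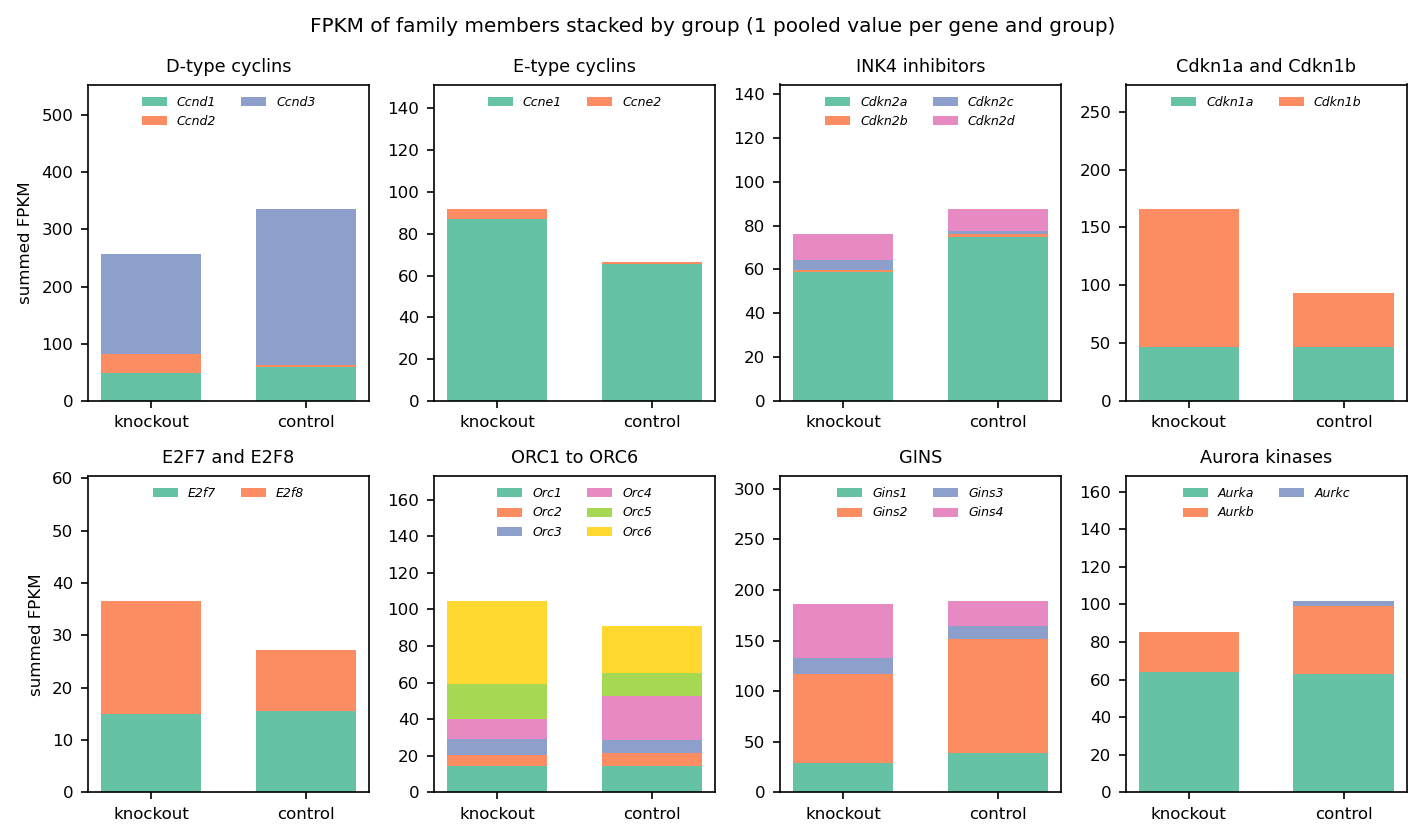
Stacked bars give the pooled FPKM of each family's members, knockout left of control, from 0. Ccnd2 makes up 12.7% of the D-type cyclin sum in knockout and 1.16% in control, and Cdkn1b and Gins4 take larger shares in knockout, while the GINS sums lie close (186 FPKM in knockout, 189.5 in control).

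The RB and E2F group, which turns CDK activity into S phase transcription, held 1 call among 10 tested genes. E2f8, an atypical E2F that represses E2F targets late in S phase, had 21.6 FPKM in knockout and 11.6 FPKM in control cells, 1.86-fold higher, with q = 0.0140 in the authors' deposited table. It lies at chr7:48866429-48881596 (mm10). Its closest relative E2f7 had 15.0 FPKM in knockout and 15.5 FPKM in control cells, so E2f8 was the higher of the pair in knockout cells and E2f7 in control cells. The activators E2f1 (44.5 and 42.3 FPKM), E2f2 (7.52 and 6.50 FPKM) and E2f3 (10.6 and 9.05 FPKM) had close values in knockout and control cells. E2f4, which works with the RB relatives in resting cells, was the most abundant E2F, at 189 FPKM in knockout and 229 FPKM in control cells. E2f5 had 3.98 and 3.80 FPKM, and E2f6, which acts without RB, had 9.35 FPKM in knockout and 13.5 FPKM in control cells. The RB family itself was low: Rbl1 had 1.85 and 2.42 FPKM and Rbl2 had 1.09 and 2.15 FPKM in knockout and control cells. Rb1, untested, had 1.21 FPKM in knockout and 0.494 FPKM in control cells, and it shares its locus entry with 2 genes.

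At the G1 to S step, the 4 genes all had higher values in knockout cells, and 0 of them passed the Cuffdiff test, with 1 at an unadjusted p under 0.05. Over all tested genes, 12.9% were called and 25.7% had such a p. Cyclin E1, the main E-type cyclin (Ccne1), had 87.3 FPKM in knockout and 65.3 FPKM in control cells. Ccne2 had 4.49 and 1.06 FPKM, a log2 ratio of 1.68 with q = 0.304 in the authors' deposited table; it shares its locus entry with Ints8. Cdk2 had 44.9 FPKM in knockout and 29.8 FPKM in control cells (q = 0.0807 in the authors' deposited table), and the phosphatase gene Cdc25a, which removes inhibitory phosphates from CDK2, had 46.7 and 43.1 FPKM. The group's median log2 ratio was 0.50.

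Origin licensing, the loading of the helicase in G1, showed 0 Cuffdiff calls among 13 tested genes, with 1 at an unadjusted p under 0.05. Over all tested genes, 12.9% were called and 25.7% had such a p, and the difference was not tested. The group's median log2 ratio was 0.12, with 7 genes above and 6 below 0. The MCM2 to MCM7 subunits, which form a ring with a copy of each, summed to 1401 FPKM in knockout and 1472 FPKM in control cells. Mcm5 (486 FPKM in knockout, 580 in control) and Mcm2 (336 in knockout, 402 in control) were the most abundant. Mcm3 had 236 FPKM in knockout and 218 FPKM in control cells, Mcm7 had 180 and 139 FPKM, Mcm6 had 106.0 and 84.9 FPKM and Mcm4 had 56.4 and 49.0 FPKM. The highest subunit was 8.62 times the lowest in knockout cells and 11.8 times in control cells. Mcm2 and Mcm5, the top subunits, thus had lower values in knockout than in control cells, and the other 4 higher values, none of them called.

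Within ORC, the complex that marks origins, values went in both directions. Orc6 had 45.8 FPKM in knockout and 25.5 FPKM in control cells (q = 0.424 in the authors' deposited table), and Orc4 had 11.4 and 24.0 FPKM (q = 0.107 in the same authors' deposited table). Both share their locus entries with another gene, Vps35 and Acvr2a. Orc5 had 18.6 FPKM in knockout and 12.6 FPKM in control cells, Orc3 had 8.80 and 7.45 FPKM, and Orc1 (14.3 and 14.7 FPKM) and Orc2 (5.91 and 6.59 FPKM) had close values. The loader Cdc6 had 36.7 FPKM in knockout and 41.8 FPKM in control cells.

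Among the genes of origin firing and DNA synthesis, 2 of 9 (22.2%) were called, both higher. Over all tested genes the share called was 12.9%, with 6.90% called higher. Gins4, a subunit of the GINS complex that activates the MCM ring, had 53.7 FPKM in knockout and 24.9 FPKM in control cells, 2.16-fold higher, with q = 0.0052 in the authors' deposited table. It lies at chr8:23226616-23237659 (mm10). The other GINS genes did not share this: Gins1 had 29.2 FPKM in knockout and 39.0 FPKM in control cells, Gins3 had 15.9 and 13.0 FPKM, and Gins2 had 87.6 and 113 FPKM, and 0 of these 3 were called. Gins4 made up 28.8% of the GINS sum in knockout and 13.1% in control cells. The locus entry of Gins2 is a merged span of 74 genes. Tyms, which makes the thymidylate for DNA, had 19.7 FPKM in knockout and 11.1 FPKM in control cells, 1.78-fold higher, with q = 0.0283 in the authors' deposited table, and lies at chr5:30058827-30073617 (mm10).

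The sliding clamp gene Pcna was the most abundant of all 78 genes in both groups, at 657 FPKM in knockout and 679 FPKM in control cells. Cdc45, the partner of GINS in the active helicase, had 56.7 FPKM in knockout and 42.1 FPKM in control cells. Mcm10, which helps to open the helicase, had 75.4 and 64.4 FPKM, and the firing kinase gene Cdc7 had 5.49 and 4.90 FPKM. None of these 4 genes was called. Mcm8 (3.43 and 2.05 FPKM) and Mcm9 (5.61 and 7.94 FPKM), which form a separate helicase for recombination, were not called either.

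The cyclins and kinase of G2 and mitotic entry showed 0 Cuffdiff calls among 6 tested genes, with 1 at an unadjusted p under 0.05. Over all tested genes, 12.9% were called and 25.7% had such a p. Values were higher in knockout cells for 5 of the 6, and the median log2 ratio was 0.31. Ccna2, the cyclin of S phase and G2, came nearest to a call, at 42.4 FPKM in knockout and 26.4 FPKM in control cells with q = 0.0542 in the authors' deposited table. Its locus entry is shared by 2 genes. Cdk1 had 95.1 FPKM in knockout and 84.7 FPKM in control cells. Among the B-type cyclins, Ccnb2 held most of the sum, with 81.1 FPKM in knockout and 76.0 FPKM in control cells, while Ccnb1 had 7.71 and 5.47 FPKM. The CDK1-activating phosphatase genes were Cdc25b, at 8.83 FPKM in knockout and 9.01 FPKM in control cells, and Cdc25c, at 8.88 and 5.80 FPKM. The germline cyclin gene Ccna1 was at 0.537 FPKM in knockout and listed at 0 in control cells, and Ccnb3 was listed at 0 in both.

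In mitosis, the kinase genes Aurkb and Aurkc were called lower and the proliferation marker Mki67 higher, while Aurka and the spindle checkpoint genes were not called. Aurkb, the kinase of the chromosomal passenger complex, had 21.2 FPKM in knockout and 36.1 FPKM in control cells, which is 58.8% of the control level (log2 ratio -0.75), with q = 0.0408 in the authors' deposited table. It lies at chr11:69045647-69051664 (mm10). Aurkc, a relative that acts in meiosis, had 0 FPKM listed for knockout and 2.98 FPKM for control cells, with q = 0.0012 in the authors' deposited table. A listed 0 may stand for an estimate that failed, although the authors marked this gene as tested and not as failed. It lies at chr7:6995300-7003091 (mm10). Aurka, the centrosomal kinase, had 64.3 FPKM in knockout and 62.9 FPKM in control cells. Mki67, which coats mitotic chromosomes, lies at chr7:135689784-135716361 (mm10). It had 24.2 FPKM in knockout and 15.6 FPKM in control cells, 1.55-fold higher, with q = 0.0325 in the authors' deposited table.

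The other mitotic genes were abundant and had close values. Cdc20, the activator of the anaphase-promoting complex, had 305 FPKM in knockout and 336 FPKM in control cells. Plk1 had 137 and 136 FPKM, and the checkpoint kinase genes Bub1b (119 and 128 FPKM) and Bub1 (43.8 and 51.9 FPKM) were not called. The other Polo-like kinases were Plk2 (6.17 FPKM in knockout, 5.56 in control), Plk3 (11.0 and 9.59 FPKM) and the centriole duplication kinase Plk4 (7.39 and 4.66 FPKM), all uncalled. Of the mitotic genes with a CHR element, Mki67 was called, and Cdc20, Plk1, Aurka, Bub1 and Bub1b were not. Among the 7 licensing genes with an E2F site, Cuffdiff called 0, with 0 at an unadjusted p under 0.05. Over all tested genes, 12.9% were called and 25.7% had such a p. Of the 7 called genes with a promoter window, 0 held one of the searched E2F sites, against 5.07% of the tested genes with a window. These counts are small, and a link between motif and call was not tested.

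**Figure D4:**
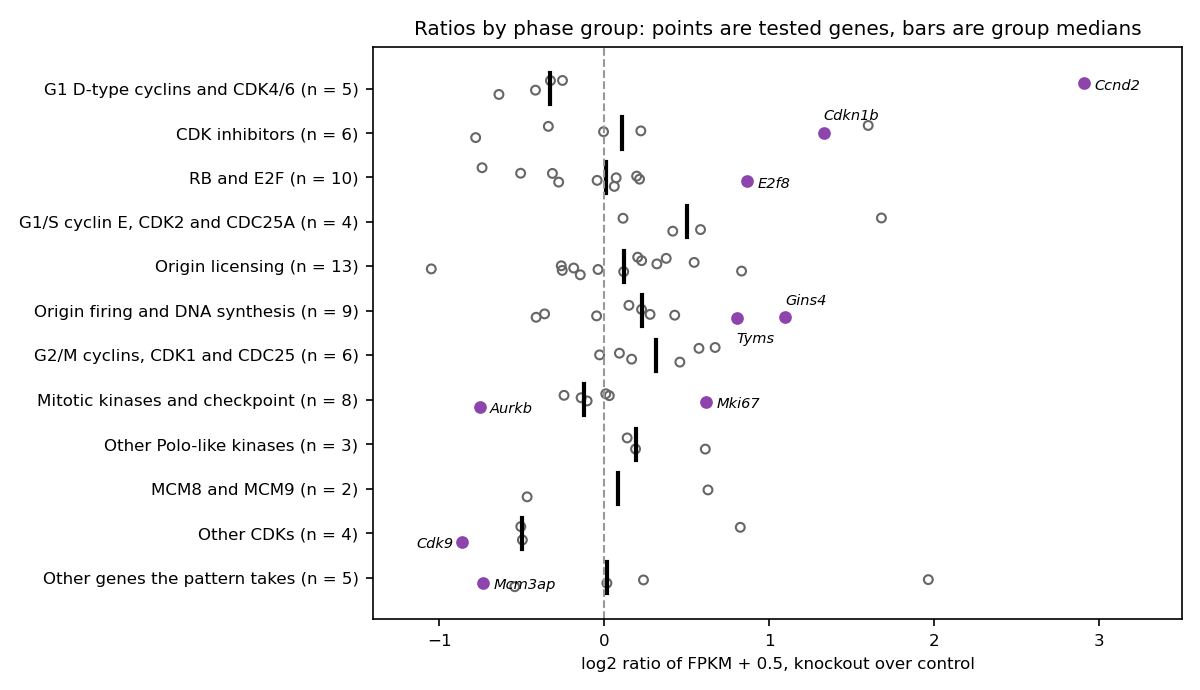
Each point is the log2 ratio (FPKM + 0.5, knockout over control) of a tested gene, by phase group; filled points are the authors' calls, bars are group medians and the dashed line is the median of all tested genes. Aurkc, listed at 0 in knockout cells, is not drawn but counts in its group's n and median. The G1/S median is 0.50 and the licensing median 0.12, and 9 of the 10 calls are labelled.

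Among the CDKs outside the core engine, Cdk9 was called lower. Cdk9, the kinase of P-TEFb that releases paused RNA polymerase II, had 54.6 FPKM in knockout and 99.5 FPKM in control cells, 54.9% of the control level, with q = 0.0038 in the authors' deposited table. It lies at chr2:32707438-32712784 (mm10). Cdk7, the kinase of the CDK-activating complex, had 16.3 FPKM in knockout and 23.2 FPKM in control cells, and the Mediator kinase gene Cdk8 had 25.8 and 36.8 FPKM. Cdk5, best known from neurons, had 30.4 FPKM in knockout and 17.0 FPKM in control cells, and these 3 were not called. All 4 had an unadjusted Cuffdiff p under 0.05, which 25.7% of all tested genes also had.

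Of the 5 genes taken only through their symbols, Mcm3ap was called. This scaffold of mRNA export had 17.4 FPKM in knockout and 29.3 FPKM in control cells, with q = 0.0140 in the authors' deposited table. It lies at chr10:76449081-76515857 (mm10), an entry shared by 3 genes. Ccnb1ip1, which acts in meiotic crossing over, had 4.79 FPKM in knockout and 0.857 FPKM in control cells (q = 0.0888 in the authors' deposited table). It was above 1 FPKM in knockout cells alone, and no gene under 1 FPKM in both groups was tested. Aurkaip1 (156 FPKM in knockout, 132 in control), Cdkn2aip (4.38 and 6.61 FPKM) and Cdkn2aipnl (53.1 and 52.5 FPKM) were not called.

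A few of these genes lay in stretches whose genes shared their direction, and Ccnb1ip1 lay on a chromosome raised as a whole. Each gene was set beside the median log2 ratio of the 50 nearest expressed genes, 25 on each side where the chromosome allowed. This median lay within 0.2 of 0 for 57 of the 75 tested genes, was above 0.5 for Gins4 (0.98) and Ccnb1ip1 (0.85), and was below -0.3 for Cdkn2aip (-0.56). The log2 ratio of Gins4 was 1.09, so it exceeded that of its neighbours by 0.11. Cdkn2aip, at -0.54, also differed little from its neighbours. Ccnb1ip1 lies on chromosome 14, where the median log2 ratio of the 403 other expressed genes was 0.70. The raised values there were thus not confined to its neighbours. On the other chromosomes holding any of these genes, this median ran from -0.09 (chromosome 5) to 0.11 (chromosome 1). On chromosome 8, which holds Gins4 and Cdkn2aip, it was 0.01. The cause of the raised values on chromosome 14 was not tested. Of the other called genes with a value above 0 in both groups, none had a neighbour median beyond -0.20 (Cdk9) or 0.09 (Mki67): Ccnd2 exceeded its neighbours by 2.98, Cdkn1b by 1.44 and E2f8 by 1.05. Chromosome 8 held 8 of the tested genes, and their values differed along it. There, Orc6 stood 1.03 above its neighbours, and Rbl2 stood 0.58 below them.

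**Figure D5:**
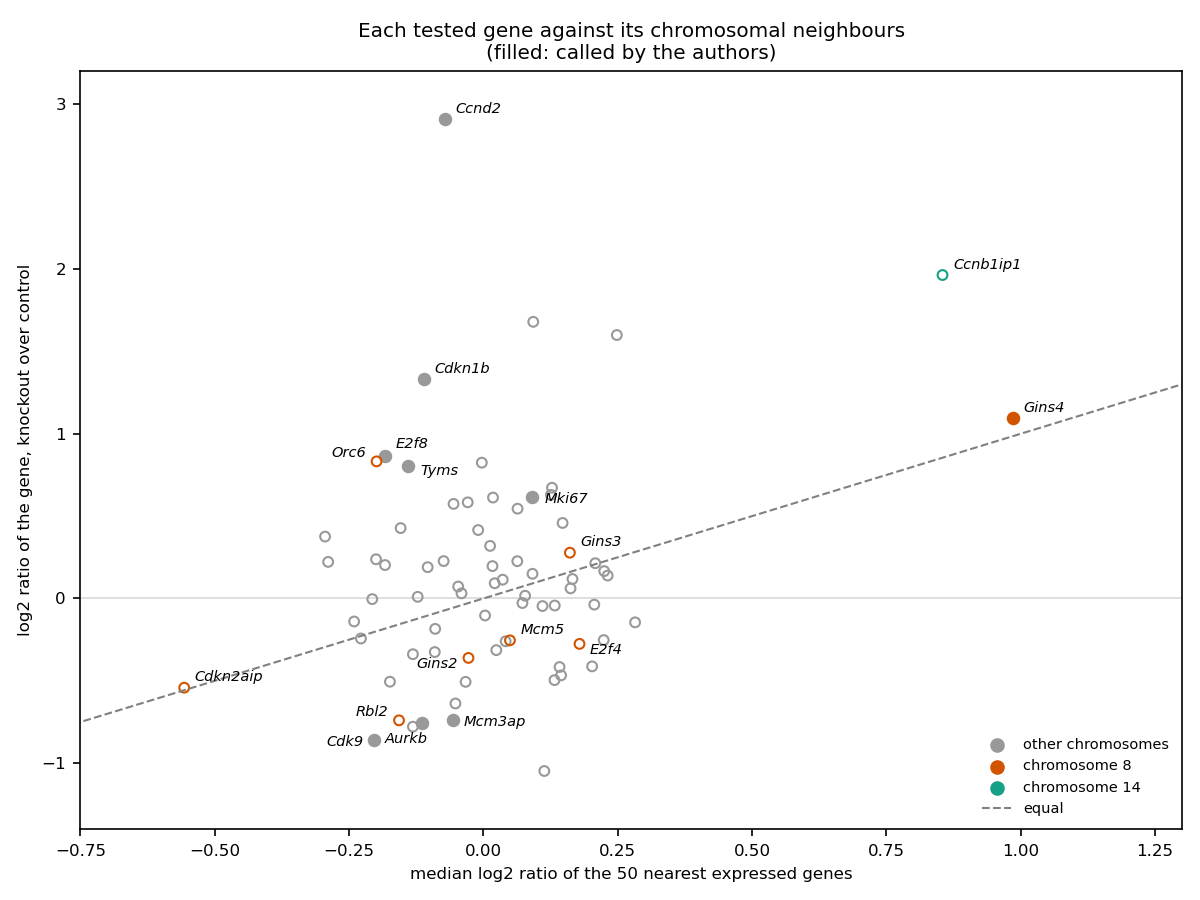
Each point is a tested gene, with the median log2 ratio of its 50 nearest expressed genes on the x axis and its own log2 ratio (knockout over control) on the y axis; filled points are called, colours mark chromosomes 8 and 14, the dashed line marks equality, and Aurkc, listed at 0, is not drawn. Gins4 lies near the line, whereas Ccnd2 (2.91) and Cdkn1b (1.33) lie far above it.

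The wider cell cycle machinery was read from 6 further lists with 119 genes in the table, of which 118 were tested, 9 called higher and 6 lower. That is 12.7%, near the 12.9% over all tested genes, and the lists below are read against that share (6.90% higher and 6.03% lower). The spindle, kinetochore and cytokinesis list had 28 tested genes, with 5 higher and 1 lower call (21.4%, against 12.9% over all tested genes; the difference was not tested). The microtubule crosslinker Prc1 had 99.3 FPKM in knockout and 47.4 FPKM in control cells, the kinetochore gene Nuf2 had 18.9 and 8.97 FPKM, and the spindle motor Kif11 had 18.1 and 10.0 FPKM. Hmmr (22.4 and 12.4 FPKM) and Anln (40.0 and 25.3 FPKM), which act at the spindle and in cytokinesis, were also called higher. The cohesin protector Sgol1, at 11.6 FPKM in knockout and 19.4 FPKM in control cells, was called lower. Spc24, the uncalled gene with the highest mean FPKM of the groups, had 148 FPKM in knockout and 183 FPKM in control cells; Birc5, also uncalled, had 154 and 159 FPKM. The list's median log2 ratio was 0.06.

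The replication fork list had 33 tested genes, with 2 higher and 3 lower calls (15.2%). The DNA polymerase delta subunits split: Pold3 had 36.4 FPKM in knockout and 18.6 FPKM in control cells, whereas the catalytic Pold1 had 83.4 and 134 FPKM and Pold2 had 373 and 597 FPKM. The chromatin remodeller Hells had 34.2 FPKM in knockout and 65.2 FPKM in control cells. Wdhd1, a fork scaffold, had 21.6 and 5.79 FPKM and lies on chromosome 14 among raised neighbours with a median log2 ratio of 0.76. Chromosome 14 was raised as a whole, with a median of 0.70 over 403 expressed genes. The uncalled ligase gene Lig1 had 263 FPKM in knockout and 218 FPKM in control cells.

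Of the 8 genes of the DREAM and MuvB list, Tfdp1, the dimer partner of E2Fs, was called higher, at 87.3 FPKM in knockout and 40.1 FPKM in control cells, with neighbours at a median log2 ratio of 0.97. Mybl2 had 404 and 498 FPKM in knockout and control cells and was not called. In the list of APC/C and SCF ligases, 1 of 25 tested genes was called higher, Cdc16 (15.3 FPKM in knockout, 5.39 in control), which lies in the same region as Tfdp1. Anapc5, at 103 FPKM in knockout and 183 FPKM in control cells, was called lower, and Anapc13 (520 and 555 FPKM) was not called. Wee1, which holds CDK1 inactive, was the only call among 13 tested checkpoint and CDK control genes, lower at 12.8 FPKM in knockout and 22.2 FPKM in control cells. Trp53 had 91.2 and 121 FPKM there and was not called. Among 11 licensing and firing control genes Cuffdiff called 0, with 1 at an unadjusted p under 0.05, and the licensing factor Cdt1 had 102 FPKM in knockout and 116 FPKM in control cells.

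As a check of the labels, Mtf2 had 44.7 FPKM in knockout and 74.3 FPKM in control cells (q = 0.0496 in the authors' deposited table), so its transcript was lower but present in cells labelled as knockout. Markers of embryonic stem cells, such as Pou5f1 and Nanog, were present in both groups for 9 of 9 genes, with a summed level of 5155 FPKM in knockout and 5225 FPKM in control cells, 2 called higher and 0 lower. Of 4 fibroblast markers, Col3a1 and Postn were listed at 0 in both groups, and Col1a1, untested, had 0.773 FPKM in knockout and 0.142 FPKM in control cells. Thy1 had 11.4 FPKM in knockout and 5.14 FPKM in control cells and was not called. The summed level of the 4 was 12.2 FPKM in knockout and 5.28 FPKM in control cells. What this adds to the results was not tested.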

How the data were processed

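Polyadenylated RNA was captured on oligo-dT beads in 6 libraries, as the labels' protocols say. The submitters' processing notes name TopHat2 2.1.0, Bowtie 1.0, deepTools and Cuffdiff, with the builds mm9 and mm10 and no roles. The authors deposited FPKM, pooled over the 3 libraries of a group, with a log2 fold change (knockout over control), a test statistic (a score) and p-values with q-values. How libraries were scaled is not stated by any source at hand. The authors' tests covered 11362 of 22462 genes; 11098 had no test and 2 failed. Summed FPKM was 504845 in knockout and 559237 in control cells. Of the 78 genes, 78 matched RefSeq GRCm38.p6 by symbol and chromosome, and 71 lay inside their locus entry to within 2 kb, so coordinates are given as mm10; starts were moved to 1-based.

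From these values the log2 ratio with a pseudocount of 0.5 FPKM, group medians, family shares, medians of neighbouring genes with 1 FPKM or more in either group, and motif matches were computed (Python 3.11.15, pandas 2.3.3, numpy 2.4.6). The log2 ratio, the medians of neighbouring genes, the recomputed adjustment and the search for CHR elements were checked on data with known answers. A call is the authors' q at or under 0.05, adjusted over all tested genes. The genes and lists were chosen with earlier results of these data known. All 78 genes are accounted for; from the further lists, called genes and the uncalled gene with the highest mean FPKM are named (Birc5 was added after its values were seen). Overlapping genes and pseudogenes can share reads, and no source at hand states whether counting used strand. Of the 78 genes, 21 (20 of them tested) lie on locus entries shared with other genes, and not all of these are marked above.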

Additional observations from a re-analysis of the deposited data

How the results depend on the processing

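Leaving out a library was not possible, as each gene has 1 pooled value per group. No paired analysis was possible because the deposited values carry no replicate. Of the 6 higher and 4 lower calls, a q of 0.01 kept 2 higher (Cdkn1b and Gins4) and 2 lower (Cdk9 and Aurkc), and a 2-fold minimum kept 3 higher (Ccnd2, Cdkn1b and Gins4) and 1 lower (Aurkc). With a normal p computed from the deposited Cuffdiff test statistic and Benjamini-Hochberg adjustment, 0 higher and 0 lower calls were left (Cdkn1b came nearest, at 0.0906); 95 higher and 29 lower calls were left in the whole table, and 4 of 74 genes had an unadjusted p under 0.05 (3 higher and 1 lower). The deposited p were thus smaller than this statistic gives, and the cause was not tested. Without the 5 genes taken only by symbol and the 4 other CDKs, 2 lower calls were left (Aurkb and Aurkc). The counts stayed within 1.5 times under an FPKM minimum of 1, recomputed adjustment, and without genes listed at 0, shared locus entries or chromosomes 8 and 14. The median log2 ratio of the tested genes ranged from 0.06 (centred on neighbours) to 0.12 (without shared locus entries) under its alternatives. Centring on neighbours moved 45 of 75 single ratios by 0.1 or more, pseudocounts of 0.1 and 1 moved 7 each, median centring moved 0, and none of the called ratios changed sign under these, median centring or centring on neighbours.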

Other observations

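The cyclins and CDKs that the name pattern leaves out were also read, by symbol, as an addition chosen after the first values were seen. Of 26 such genes 23 were tested, and 3 were called, all lower in knockout cells. That is 13.0%, near the 12.9% over all tested genes, of which 6.03% were called lower. Cdk18 had 6.13 FPKM in knockout and 29.3 FPKM in control cells (q = 0.0012 in the authors' deposited table), a log2 ratio of -2.17. Ccnl2, a cyclin linked to splicing, had 22.8 FPKM in knockout and 39.6 FPKM in control cells, and Ccni had 13.6 and 23.8 FPKM. The cyclin T partners of Cdk9, Ccnt1 (71.8 FPKM in knockout, 59.5 in control) and Ccnt2 (26.98 and 26.3 FPKM), were not called.

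By control FPKM, most calls among the cell cycle and replication genes fell in a middle band, with bands chosen after the values were seen. The bands use the control value alone, so a gene higher in knockout cells can fall in a lower band than its knockout value would give. Of the called genes, Cdkn1b (119 FPKM in knockout, 47.2 in control) and Gins4 (53.7 and 24.9 FPKM) reached 50 FPKM in knockout cells alone. Cdk9 was above 50 FPKM in both groups. Of the 24 tested genes at 50 FPKM or more in control cells, 1 was called (4.17%, Cdk9), against 19.4% of all tested genes in that band. Of the 28 genes between 10 and 50 FPKM, 7 were called (25%, against 12.9%), and of the 23 below 10 FPKM, 2 were called (8.70%, against 10.5%). In the top band the median absolute log2 ratio was 0.25 for these genes and 0.36 for all tested genes. These shares describe 1 pair of pooled values and were not tested.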
